A study of Mus musculus with 16 samples.

Results

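The 10 genes described here encode GRP78 and the chaperones that work with it in the lumen of the endoplasmic reticulum (ER). They were chosen by name, as the rows of a gene expression table of mouse islet cells that carry the symbols Hspa5, Hsp90b1, Hyou1, Sil1, Dnajb9, Dnajb11, Dnajc3, Sdf2l1, Calr and Canx. All 10 were found among the 25105 genes of the table. RNA was sequenced from dispersed primary islet cells of adult Grp78 flox/flox mice, in which loxP sites flank part of Hspa5, the gene for GRP78. Cells of 4 islet preparations, 2 female (F1, F2) and 2 male (M1, M2), were each split over 4 conditions and cultured in 15 mM glucose for 72 hours, so that every condition had 4 libraries. The study asked which genes respond when GRP78 is depleted from islet cells, and whether blocking the stress kinase JNK alters that response.

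The control group, Ad-LacZ, received an adenovirus expressing LacZ and the vehicle DMSO. The Ad-Cre group received an adenovirus expressing Cre recombinase, labelled as the knockdown, and DMSO, and Ad-Cre below means the libraries so labelled. The groups named Ad-LacZ + JNK inhibitor and, for the Cre virus, Ad-Cre + JNK inhibitor received the same viruses with the pan JNK inhibitor JNK-IN-8 from the start of the culture. All 4 groups carried the floxed alleles, and the viruses were not directed to 1 cell type, so Cre could act in any cell that was infected and cells that were not infected may remain. The labels name 2 animal numbers for each preparation, whereas the methods count 4 mice. Values are RPKM, reads per kilobase of gene scaled to a fixed number of reads per library, so that levels of genes can be set side by side. RPKM does not make libraries fully comparable, and its sum over all genes ran from 290885 to 368719 per library. The fits therefore used values scaled further between libraries, while levels, shares and folds within a preparation are from RPKM as deposited. In a bulk library, fewer cells of a type and less RNA per cell cannot be told apart.

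GRP78 is the HSP70 of the ER. It binds unfolded stretches of newly made proteins, and in resting cells it also binds the stress sensors IRE1, PERK and ATF6. J-domain cochaperones bring clients to GRP78 and start its ATP cycle, and nucleotide exchange factors end the cycle. GRP94 is the HSP90 of the ER and takes over a subset of clients, while calreticulin and calnexin are lectins that hold glycoproteins by a trimmed sugar. Beta cells make insulin in very large amounts in this compartment, and unfolded protein raises the transcription of many of these chaperones through the unfolded protein response (UPR). In that response, the factors ATF6, XBP1 and ATF4 act on promoter elements such as the ER stress response element (ERSE).

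The upstream sequences are shown because the ERSE is the element through which ATF6 acts, together with the CCAAT-binding factor NF-Y, on several ER chaperone genes. RefSeq sequences (GRCm38.p6) were searched for 8 of the 10 genes, on both strands in the 250 bases before the start of the gene. Hyou1 and Sil1 were not among the windows searched, so the search says nothing about elements upstream of these genes. The ERSE was written as CCAAT, any 9 bases, then CCACG. It was present upstream of 5 of the 8 genes, Hspa5, Hsp90b1, Dnajc3, Calr and Canx, against 0.113% of all 32851 upstream windows searched. Hsp90b1 held 2 copies. Each copy is printed with 5 bases on either side, 5′ to 3′ on the strand that reads CCAAT first, with CCAAT and CCACG in capitals. They lie at chr2:34772020-34772048 (plus strand) for Hspa5, chr10:86705633-86705661 (minus) and chr10:86705528-86705556 (plus) for the distal and proximal copies of Hsp90b1, chr14:118937822-118937850 (plus) for Dnajc3, chr8:84847070-84847098 (plus) for Calr and chr11:50325795-50325823 (minus) for Canx.
Hspa5: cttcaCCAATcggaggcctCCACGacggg
Hsp90b1 distal: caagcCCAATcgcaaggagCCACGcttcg
Hsp90b1 proximal: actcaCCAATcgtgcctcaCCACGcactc
Dnajc3: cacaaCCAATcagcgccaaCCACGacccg
Calr: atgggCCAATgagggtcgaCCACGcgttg
Canx: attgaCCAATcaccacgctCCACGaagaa

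Counted in bases from the start of the gene, the element's far end lay at -65 in Hspa5, -105 in Dnajc3, -145 in Canx and -162 in Calr, and at -212 and -107 for the copies of Hsp90b1. Upstream of Sdf2l1, Dnajb9 and Dnajb11 no ERSE was found in this window. The window of Sdf2l1 is printed because this gene showed the largest fold change of the 10 (7.38-fold). It holds CCAAT and CCACG, in capitals on either strand, 3 times each, but not at the spacing searched. It lies at chr16:17132384-17132633 and is printed on the minus strand, the strand of the gene.
Sdf2l1: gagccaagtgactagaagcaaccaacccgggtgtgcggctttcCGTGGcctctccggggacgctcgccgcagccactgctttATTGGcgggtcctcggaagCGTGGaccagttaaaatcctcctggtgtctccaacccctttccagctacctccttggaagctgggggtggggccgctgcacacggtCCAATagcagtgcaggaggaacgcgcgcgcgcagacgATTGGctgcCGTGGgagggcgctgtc

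Of the other elements searched, none was found upstream of the 8 genes. These were ERSE-II (ATTGG, any 1 base, then CCACG), present in 0.0304% of all windows, the unfolded protein response element TGACGTGG, in 0.563%, and the amino acid response element TGATGCAAT, in 0.167%. The CCAAT word alone was found upstream of all 8 genes and in 33.8% of all windows, and CCACG alone upstream of 7 and in 28.3%. These matches describe letters, and no binding was measured. The ERSE is known from ER chaperone genes, so its presence upstream of such genes is a description and not a test.

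**Figure D1:**
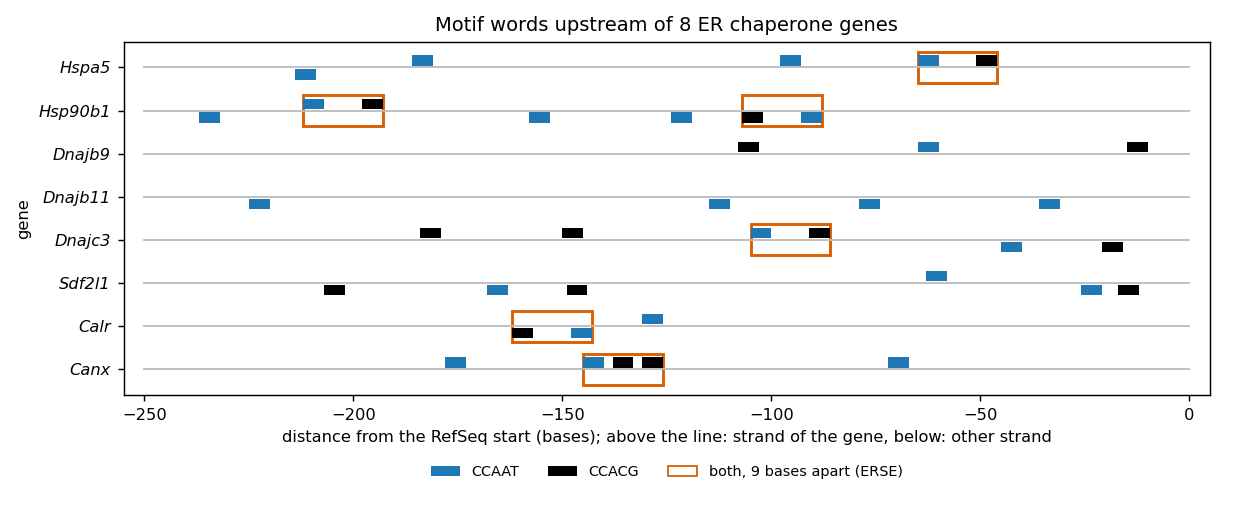
Positions of CCAAT (blue), CCACG (black) and the full ERSE (orange boxes) in the 250 bases before the RefSeq start of 8 genes; the x axis is the distance from the start in bases, with the strand of the gene above each line and the other strand below. Boxes appear in 5 genes, with 2 in Hsp90b1 and none in Dnajb9, Dnajb11 or Sdf2l1.

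In the control cells the chaperones held ranks from 23 to 639 among all genes by level. In the Ad-LacZ libraries, Hsp90b1 had the highest level of the 10 at 548 ± 70.6 RPKM (SD, n = 4). Hspa5 followed at 438 ± 49.0 RPKM and Calr at 279 ± 34.8. Hsp90b1 was above Hspa5 in each of the 4 libraries although their ranges overlapped, and the ranges of Hspa5, Calr and Canx did not overlap. Canx at 174 ± 6.57 RPKM and Dnajb9 at 172 ± 18.1 were not separated, since Canx was the higher in only 1 of 4 libraries. Hyou1 stood at 141 ± 28.2, below Dnajb9 in each library, with overlapping ranges. The lowest 4 were Dnajc3 (81.0 ± 4.80), Sil1 (69.4 ± 6.55), Dnajb11 (61.5 ± 3.85) and Sdf2l1 (58.9 ± 18.9), each of which overlapped the next. Together the 10 genes made up 0.653% ± 0.0490 of all RPKM in Ad-LacZ, and Hspa5, Hsp90b1 and Calr contributed 62.5% of that.

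In the libraries labelled Ad-Cre, the 10 genes made up 1.80% ± 0.429 of all RPKM, from 1.37% in preparation F1 to 2.37% in F2, whereas the Ad-LacZ libraries lay between 0.591% and 0.701%. Called at a Benjamini-Hochberg adjusted p under 0.05 by limma over all 11590 genes tested, 9 of the 10 were higher in Ad-Cre, against 7.29% of all genes tested. The same 9 had every Ad-Cre library above every Ad-LacZ library, against 10.7% of all genes. The exception was Sil1. The median log2 fold change of the 10 was 1.52, and that of all genes was -0.01. All 10 passed the filter on low values, and each was above 1 RPKM in all libraries, so none entered through 1 group alone.

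**Figure D2:**
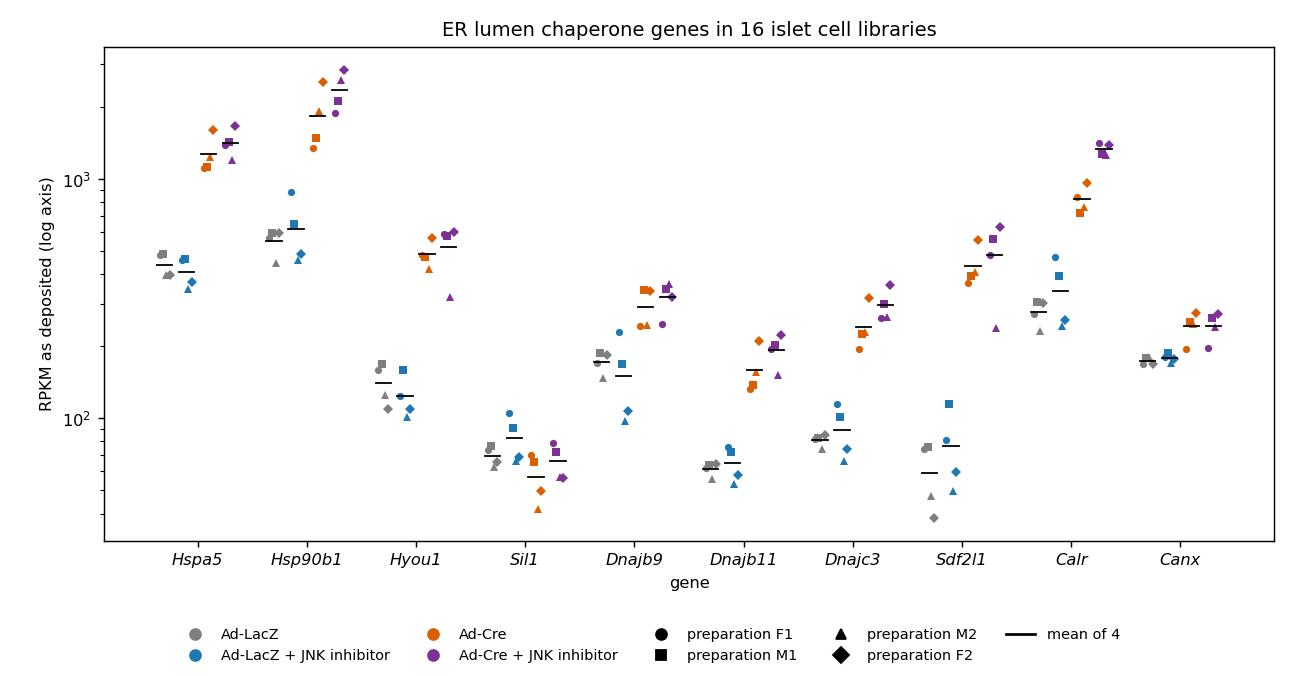
RPKM as deposited (log axis) of the 10 genes in 16 libraries; color marks the group, the symbol marks the preparation and the bar is the mean of 4. For 9 genes all Ad-Cre points lie above all Ad-LacZ points, and for Sil1 they overlap.

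Hspa5, on the plus strand at chr2:34771970-34777547 (GRCm38), was the gene targeted by Cre. This gene model begins upstream of the RefSeq start, so the element printed above lies within it. In Ad-LacZ it read 478, 483, 395 and 396 RPKM in preparations F1, M1, M2 and F2. In Ad-Cre it read 1107, 1114, 1237 and 1598. Every library labelled Ad-Cre was thus higher than every control, and no reduction of the Hspa5 transcript was seen in any preparation. The rise was 2.85-fold (log2 fold change 1.51 ± 0.184 SE, limma adjusted p = 0.00224), and ranged from 2.31-fold in M1 to 4.03-fold in F2. The table has 1 value per gene and does not separate the exons between the loxP sites from the others, so this level does not check the deletion. The ratios to Hspa5 and the correlations with Hspa5 given below use this same value and carry the same limit. The study also measured Grp78 by qPCR in parallel aliquots, which is not analysed here.

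Hsp90b1 (chr10:86690209-86705509, minus strand) encodes GRP94. It read 564, 593, 445 and 592 RPKM in Ad-LacZ and 1344, 1485, 1924 and 2530.2 in Ad-Cre, in the order F1, M1, M2 and F2. The groups were far apart, and the increase was largest in M2 and F2 (4.33-fold and 4.27-fold) and smaller in F1 and M1 (2.38-fold and 2.50-fold). The log2 fold change was 1.69 ± 0.223 (limma adjusted p = 0.00306). With 1821 ± 534 RPKM, Hsp90b1 ranked 12 among all genes in Ad-Cre, and Hspa5 with 1264 ± 231 ranked 17. In the annotation (GENCODE M21), 15.7% of the exonic bases of Hsp90b1 are shared with other annotated genes, and strand use in the counting is not given in the sources used here. The one on the opposite strand, 1810014B01Rik, was listed at 0.537 to 1.83 RPKM.

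Of the nucleotide exchange factors of GRP78, Hyou1 was called higher and Sil1 was not. Hyou1 (chr9:44379490-44392369, plus strand) encodes GRP170, a large relative of HSP70 that releases ADP from GRP78 and also holds unfolded protein itself. It read 159.6, 169, 125 and 109 RPKM in Ad-LacZ and 481, 470.2, 419 and 567 in Ad-Cre, with no overlap. Its log2 fold change was 1.78 ± 0.209 (limma adjusted p = 0.00194), the second largest of the 10. Sil1 (chr18:35266396-35499780, minus strand) encodes the other exchange factor of GRP78, and mutations in the human gene cause Marinesco-Sjögren syndrome.

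Sil1 read 73.5, 76.2, 62.3 and 65.5 RPKM in Ad-LacZ and 70.2, 65.8, 41.9 and 49.7 in Ad-Cre. Each preparation had a lower value in Ad-Cre, but the groups overlapped. In the annotation, 5.70% of its exonic bases are shared with antisense genes. The log2 fold change was -0.31 with a 95% confidence interval from -0.84 to 0.22 (limma adjusted p = 0.392). The upper bound of the interval lies below the log2 fold change of every other member. The ratio of Sil1 to Hyou1 within a library went from 0.502 ± 0.0676 in Ad-LacZ to 0.118 ± 0.0289 in Ad-Cre. The groups did not overlap (exact two-sided permutation p = 0.0286, the smallest that 4 against 4 libraries can give, and 0.0571 after Benjamini-Hochberg adjustment over the 8 ratios compared), and the ratio was lower in 4 of 4 preparations.

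The 4 cochaperones that carry a J-domain or partner one showed different sizes of rise. Dnajb11 (chr16:22857845-22879634, plus strand) encodes ERdj3, which is loaded on unfolded clients and hands them to GRP78. It read 62.2, 63.9, 55.9 and 64.1 RPKM in Ad-LacZ and 132, 138, 156 and 210.2 in Ad-Cre. The Ad-LacZ libraries were tightly grouped and all were below the lowest Ad-Cre library (log2 fold change 1.33 ± 0.157, limma adjusted p = 0.00197). Dnajc3 (chr14:118937976-118981697, plus strand) encodes P58IPK, an ER J-domain protein whose loss causes diabetes in mice and humans. It read 81.9, 82.5, 74.1 and 85.3 RPKM in Ad-LacZ and 194, 224, 229.7 and 316 in Ad-Cre. Its groups were also apart (log2 fold change 1.54 ± 0.161, limma adjusted p = 0.00130).

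Dnajb9 (chr12:44205559-44210326, minus strand) encodes ERdj4, a J-domain protein that takes part in ER-associated degradation and in placing GRP78 on IRE1. It read 171, 187, 147 and 184 RPKM in Ad-LacZ and 242, 342, 244 and 339.8 in Ad-Cre. The groups did not overlap, but the rise was smaller, 1.67-fold (log2 fold change 0.74 ± 0.200, limma adjusted p = 0.0367). This call was lost without preparation F1, M1 or F2 (adjusted p = 0.101, 0.124 and 0.163) and held without M2 (0.0375). It was also lost with no filter, with quantile normalization and with all 16 libraries in 1 fit (adjusted p = 0.0715, 0.116 and 0.103), and over all alternatives its adjusted p ran from 0.00299 to 0.163. Relative to Hspa5, Dnajb9 was lower in Ad-Cre, the ratio going from 0.395 ± 0.0477 to 0.234 ± 0.0494 without overlap (exact permutation p = 0.0286, adjusted 0.0571).

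Sdf2l1 (chr16:17130138-17132383, minus strand) encodes a small ER protein that binds ERdj3 and keeps its clients from aggregating. It read 74.4, 75.5, 47.6 and 38.2 RPKM in Ad-LacZ and 368, 393, 409 and 553 in Ad-Cre. From the lowest place of the 10 in Ad-LacZ it moved to the fifth in Ad-Cre. The change was 7.38-fold (log2 fold change 2.88 ± 0.259, limma adjusted p = 0.000846), the fifth largest rise of all genes tested, and ranged from 4.95-fold in F1 to 14.5-fold in F2. Relative to its partner it was higher, with the ratio of Sdf2l1 to Dnajb11 at 0.956 ± 0.289 in Ad-LacZ and 2.72 ± 0.110 in Ad-Cre (exact permutation p = 0.0286, adjusted 0.0571, higher in 4 of 4 preparations).

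Of the lectins, the soluble one had the larger estimate, although both were called higher. Calr (chr8:84841850-84846934, minus strand) encodes calreticulin, the soluble lectin, which also stores ER calcium. It read 273, 306, 231 and 303 RPKM in Ad-LacZ and 837, 716, 764 and 962 in Ad-Cre, without overlap (log2 fold change 1.55 ± 0.188, limma adjusted p = 0.00223). The annotation names a pseudogene of Calr, Calr-ps, which has no row in the table. Canx (chr11:50293961-50325673, minus strand) encodes calnexin, the membrane-bound lectin.

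Canx read 168, 178, 180.3 and 168 RPKM in Ad-LacZ and 195, 252, 248 and 275 in Ad-Cre. All Ad-Cre libraries were higher, by 1.16-fold in F1 to 1.64-fold in F2. The log2 fold change of 0.46 ± 0.131 passed the threshold narrowly (limma adjusted p = 0.0421), and the call was lost when any 1 preparation was left out (adjusted p = 0.0902, 0.164, 0.0881 and 0.214 without F1, M1, M2 and F2). It was also lost with no filter (0.0634), with a filter at 0.1 RPKM (0.0503) and with quantile normalization, where the log2 fold change was 0.16 (0.417), and over all alternatives the adjusted p ran from 0.0142 to 0.417. The ratio of Calr to Canx went from 1.61 ± 0.228 in Ad-LacZ to 3.43 ± 0.634 in Ad-Cre, higher in 4 of 4 preparations and without overlap (exact permutation p = 0.0286, adjusted 0.0571).

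The other ratios overlapped between the groups, and none of the 8 was under 0.05 after adjustment (0.0571 at the lowest). The ratio of Dnajc3 to Hspa5 was 0.186 ± 0.0208 in Ad-LacZ and 0.190 ± 0.0118 in Ad-Cre (exact permutation p = 0.714). The ratio of Hsp90b1 to Hspa5 was 1.26 ± 0.163 and 1.42 ± 0.178, higher in 4 of 4 preparations but overlapping (exact permutation p = 0.2). The ratios of Hyou1 and Dnajb11 to Hspa5 went from 0.319 ± 0.0318 to 0.387 ± 0.0477 and from 0.141 ± 0.0145 to 0.125 ± 0.00514, both with an exact permutation p of 0.0571 (adjusted 0.0762). A p that misses the threshold does not show that these genes changed alike. In the ratios to Hspa5 the denominator is the gene targeted by Cre, and its value does not separate the exons between the loxP sites.

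**Figure D3:**
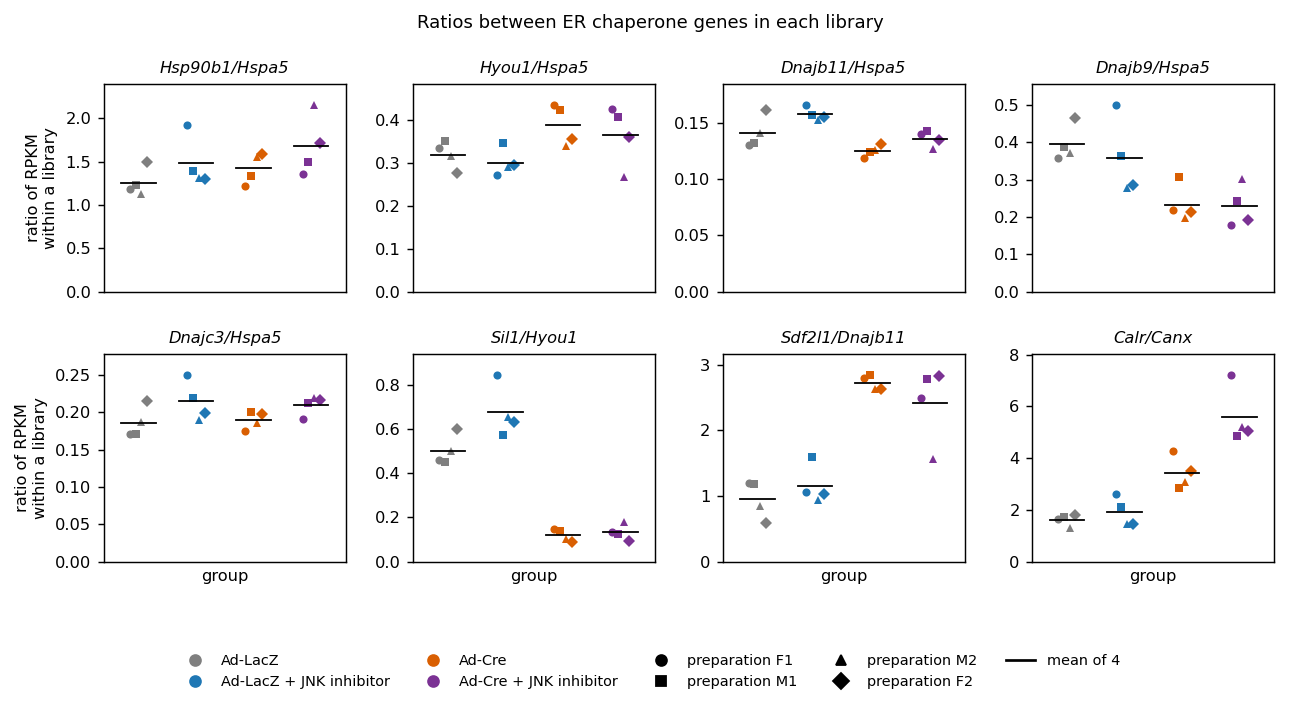
The 8 ratios between members within each library (y axis, ratio of RPKM, from 0); color marks the group, the symbol the preparation and the bar the mean of 4. Sil1/Hyou1 and Dnajb9/Hspa5 are lower, and Sdf2l1/Dnajb11 and Calr/Canx higher, in all Ad-Cre than in all Ad-LacZ libraries.

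The order of levels therefore differed between the viruses. In Ad-Cre, Hsp90b1, Hspa5 and Calr (819.5 ± 107 RPKM) again led the order. They were followed by Hyou1 (484 ± 61.6), Sdf2l1 (431 ± 83.5), Dnajb9 (292 ± 56.5), Canx (242 ± 33.9), Dnajc3 (241 ± 52.5), Dnajb11 (159 ± 35.6) and Sil1 (56.9 ± 13.3). Neighbors from Dnajb9 to Dnajb11 overlapped in their ranges, as did Hyou1 with Sdf2l1 and Hsp90b1 with Hspa5. Sil1 was lowest in every Ad-Cre library, below the range of Dnajb11.

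The preparations responded to different degrees. The fold change of Hspa5, Hyou1, Dnajb11, Dnajc3 and Sdf2l1 was largest in F2 and that of Hsp90b1 in M2, and F2 also had the largest for Dnajb9 and Canx. For Hspa5, Hsp90b1, Hyou1, Dnajb11, Dnajc3 and Sdf2l1, F1 and M1, a female and a male preparation, both had smaller fold changes than M2 and F2. Without F2, 7 of 10 members and 98 genes of all tested were called higher. Without F1, M1 and M2 the members called numbered 7, 7 and 8, and the genes called higher 277, 211 and 451. The 7 members other than Sil1, Dnajb9 and Canx were called under each of the 12 alternatives run for this comparison. Their highest adjusted p was 0.0406, for Hspa5 without F2.

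Across all 16 libraries the levels of the members other than Sil1 ran in parallel. The Pearson correlation of log2 levels with Hspa5 was 0.99 for Dnajb11, Dnajc3 and Hyou1, 0.98 for Sdf2l1, 0.97 for Hsp90b1, 0.96 for Calr, 0.93 for Canx, 0.88 for Dnajb9 and -0.11 for Sil1. After the mean of each group was removed, the correlations with Hspa5 were 0.95 for Dnajb11, 0.92 for Dnajc3, 0.73 for Dnajb9 and Canx, and 0.64 for Sil1. These correlations are a description over 16 libraries that share 4 preparations and, within a library, 1 scaling factor. Between Sil1 and the other 9 members the correlations ran from -0.11 to 0.14 over all libraries and from 0.36 to 0.78 after the group means were removed. For the 36 pairs without Sil1 they ran from 0.83 to 0.99 and, after the group means were removed, from 0.41 to 0.96. The 2 ranges after removal thus overlapped.

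With the members set aside, the 10 genes whose log2 levels over the 16 libraries were most like those of Hspa5 had correlations from 0.98 to 0.99. They were Pdia4, Herpud1, Manf, Sel1l, Creld2, Alg12, Derl3, Pdia3, Nars and Tbccd1. Pdia4 and Pdia3 are disulfide isomerases of the ER, and Pdia3 (ERp57) is the partner of calreticulin and calnexin. Sel1l, Herpud1 and Derl3 act in ER-associated degradation, Manf and Creld2 are ER proteins secreted on stress, and Nars is the cytosolic asparaginyl-tRNA synthetase. Mean levels went from 109 RPKM in Ad-LacZ to 909 in Ad-Cre for Pdia4, from 52.7 to 670.3 for Creld2 and from 1.92 to 93.7 for Derl3. Among all 12273 genes ranked, members included, Dnajb11 ranked 4, Dnajc3 7, Hyou1 8 and Sdf2l1 13, while Dnajb9 ranked 394 and Sil1 6594.

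Related genes outside the 10 had smaller median changes. Of 8 further ER genes, J-domain proteins and other relatives or partners of these chaperones, limma called none at an adjusted p under 0.05. Among the 8 were Sec63 of the translocon and Dnajc10, a reductase. An unadjusted p under 0.05 was found for 2, Ficd (log2 fold change 0.55) and Dnajc25 (0.27). The median log2 fold change of the 8 was 0.04. FICD attaches AMP to GRP78 and removes it again. Of 6 tested partners of GRP94 and receptors that retrieve ER proteins, 3 were higher. These were the receptors Kdelr3 (1.53 ± 0.188, limma adjusted p = 0.00227) and Kdelr2 (0.46 ± 0.133, adjusted p = 0.0442), and Cnpy3 (0.61 ± 0.171, adjusted p = 0.0419), which assists GRP94 with Toll-like receptors.

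Around calreticulin and calnexin, 2 of 7 tested genes of the lectin cycle were higher, Pdia3 (1.12 ± 0.178) and Prkcsh (0.46 ± 0.136), a subunit of the glucosidase that trims the sugar. Uggt1, which restores the glucose for another round of binding, was not called (0.18). Of 14 prolyl isomerases, reticulocalbins and the collagen chaperone, 2 were higher, Fkbp11 (1.46 ± 0.182) and the cyclophilin gene Ppib (0.92 ± 0.155). The other 12 of that list were not called. Its median was 0.47.

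Of 9 sensors and transcription factors of the UPR, 3 were higher, the CHOP gene Ddit3 (log2 fold change 2.52 ± 0.271, limma adjusted p = 0.00143), Atf4 (0.65 ± 0.175) and the PERK gene Eif2ak3 (0.59 ± 0.105). Ern1, Atf6 and Xbp1 were not called (-0.17, -0.17 and -0.08), and for Xbp1 a value per gene does not separate the spliced form. Among 20 relatives of these chaperones outside the ER, 2 were higher, Bag3 (0.67 ± 0.139) and the mitochondrial Hspa9 (0.65 ± 0.119). A further 2 were lower, Hspa4l (-0.54 ± 0.119) and Dnaja1 (-0.51 ± 0.114), against 9.58% of all genes called lower. Hspa8, the constitutive HSP70 of the cytosol, was not called (-0.21). The medians of the lists lay between 0.04 and 0.47, beside 1.52 for the 10 chaperones. The lists differ in size and were not tested as sets.

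**Figure D4:**
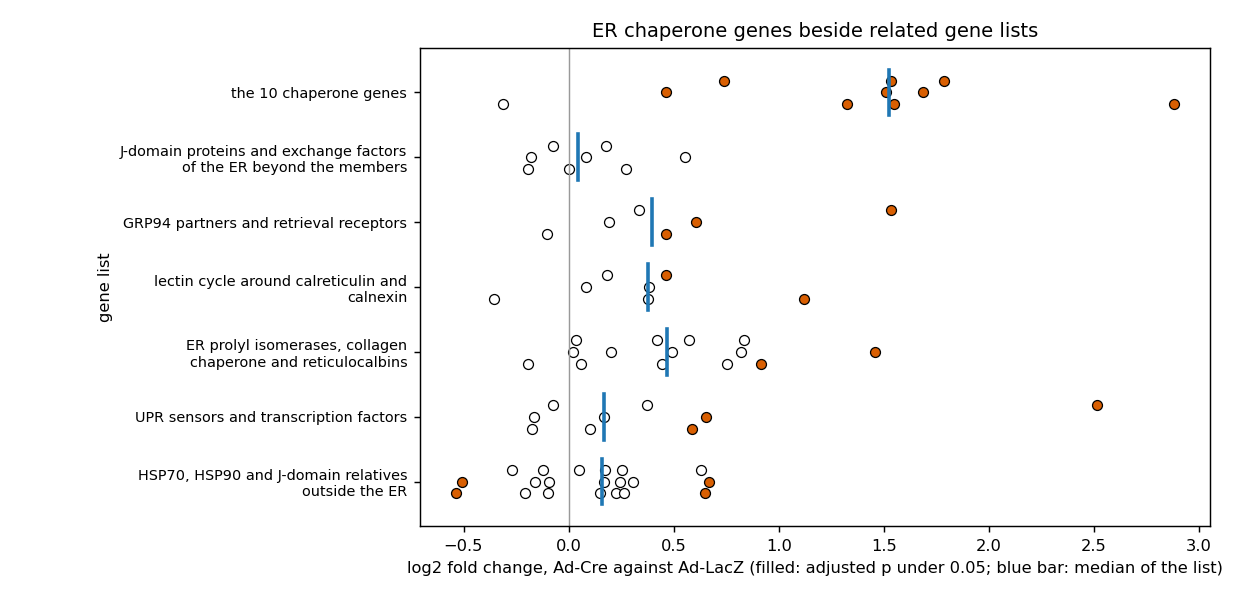
Log2 fold change of Ad-Cre against Ad-LacZ for each tested gene (x axis), by gene list (rows); filled points passed an adjusted p under 0.05, open points did not, and the blue bar is the median of the list. The 10 chaperones have a median of 1.52, and the 6 related lists have medians from 0.04 to 0.47.

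With the JNK inhibitor in both arms, the difference between the viruses had the same direction for the same members. In Ad-LacZ + JNK inhibitor the 10 genes made up 0.715% ± 0.175 of all RPKM, and in Ad-Cre + JNK inhibitor 2.14% ± 0.263. Again 9 of 10 were called higher, against 10.1% of 11598 genes, and 9 of 10 had groups that did not overlap, against 11.6%. The median log2 fold change was 1.90 (all genes -0.03).

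Hspa5 read 458, 461, 348 and 372 RPKM in Ad-LacZ + JNK inhibitor and 1381, 1416, 1202 and 1660.5 in Ad-Cre + JNK inhibitor, which was 3.78-fold (log2 fold change 1.92 ± 0.225, limma adjusted p = 0.000946). Hsp90b1 had a log2 fold change of 2.10 ± 0.302, Hyou1 2.18 ± 0.283, Calr 2.14 ± 0.301, Dnajc3 1.88 ± 0.259 and Dnajb11 1.69 ± 0.228, all with limma adjusted p from 0.00158 to 0.00238. Sdf2l1 again had the largest, 2.75 ± 0.391 (limma adjusted p = 0.00228). Hyou1 and Sdf2l1 were lowest in preparation M2 of Ad-Cre + JNK inhibitor, at 320.2 and 238 RPKM, where the other 3 libraries read 576 to 597 and 482 to 631.

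Sil1 was again not called (log2 fold change -0.18, 95% confidence interval -0.77 to 0.41), and again was lower with Ad-Cre in 4 of 4 preparations. Dnajb9 (1.29 ± 0.340, limma adjusted p = 0.0272) and Canx (0.56 ± 0.172, adjusted p = 0.0458) were the weakest calls. Both were lost without M1, M2 or F2, with adjusted p of 0.126, 0.0554 and 0.148 for Dnajb9 and 0.209, 0.0887 and 0.257 for Canx. Both were also lost with no filter (0.0614 and 0.0710) and with quantile normalization (0.0853 and 0.738), and Canx with a filter at 0.1 RPKM (0.0552). Over all alternatives the adjusted p ran from 0.00409 to 0.148 for Dnajb9 and from 0.00631 to 0.738 for Canx. One library, Ad-Cre + JNK inhibitor F2, had the least estimated depth of all 16. The column name in its label has another prefix and ending than those of the other libraries. The labels do not say what these parts stand for. Without this library alone 7 of 10 members were called higher, against 6.47% of all genes tested in that fit. Dnajb9 then had a limma adjusted p of 0.0594 and Canx of 0.113. Of the related lists, higher calls numbered 1 of 8, 3 of 6, 2 of 7, 2 of 14, 3 of 9 and 5 of 20 in the order above, and 2 of the 20 relatives outside the ER were lower, against 10.5% of all genes.

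**Figure D5:**
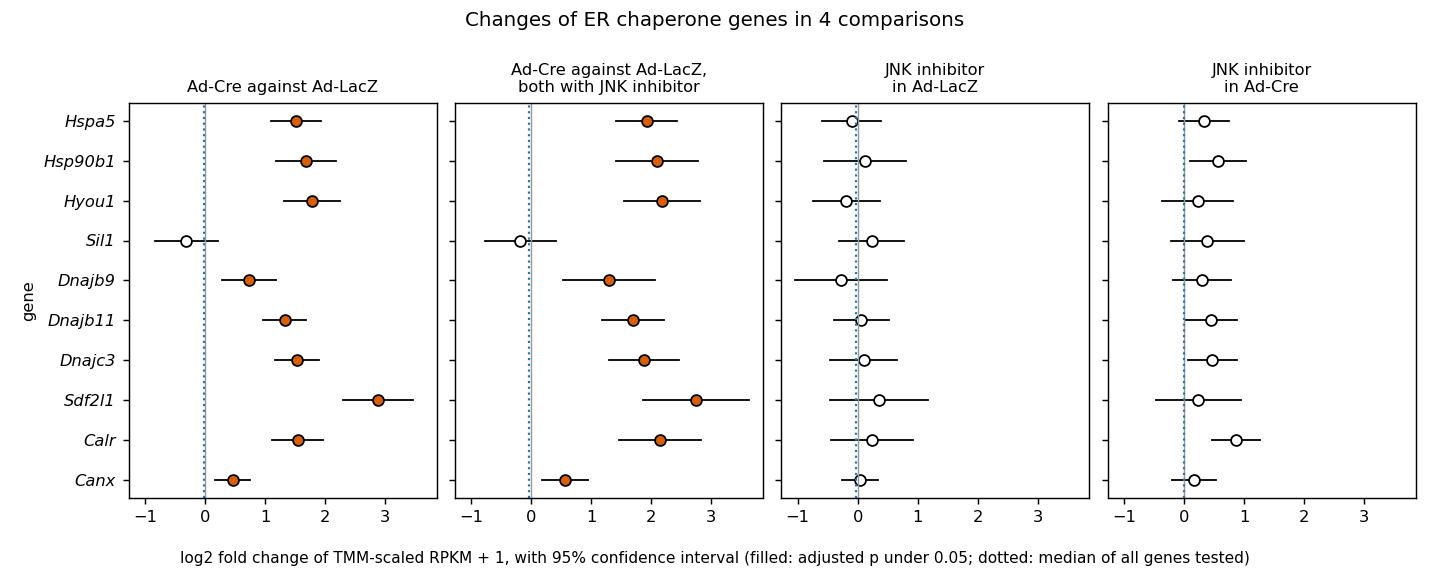
Log2 fold change (x axis) of each gene in the 4 comparisons, with 95% confidence intervals; filled points passed an adjusted p under 0.05 and the dotted line is the median of all genes tested. In both comparisons of Ad-Cre with Ad-LacZ 9 of 10 points are filled, and in both comparisons of the inhibitor none is. The fits shown do not pair libraries by preparation.

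In the cells that received LacZ, 17 genes were called higher with the inhibitor than with vehicle and 6 lower. Those higher included 2 of the 6 macrophage markers, Cd68 (log2 fold change 1.203, limma adjusted p = 0.0161) and Lyz2 (2.15, adjusted p = 0.0411). Of the 10 members limma called 0 there, beside 0.146% of 11657 genes called higher. At that share, 0 of 10 says little about the members. Their median log2 fold change was 0.08 (all genes -0.02). The estimates ran from -0.28 for Dnajb9 (95% confidence interval -1.04 to 0.48) to 0.35 for Sdf2l1 (-0.47 to 1.17). For Hspa5 the log2 fold change was -0.10 with an interval from -0.59 to 0.39, and the ratio of inhibitor to vehicle was under 1 in 4 of 4 preparations (0.881 to 0.957). The widest spread was that of Dnajb9, which read 229 RPKM in F1 but 96.9 in M2 and 107 in F2 with the inhibitor. The interval was narrowest for Canx, from -0.27 to 0.34.

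In the Ad-Cre cells, the estimates for the inhibitor were above 0 for all 10 members, with a median of 0.36 beside -0.01 for all genes. With quantile normalization 5 of the 10 were below 0, Hspa5 (-0.22), Hyou1 (-0.21), Sdf2l1 (-0.12), Canx (-0.12) and Dnajb9 (-0.011). In the scaled values limma called none of the 10 at an adjusted p under 0.05, and 1 gene of all 11503 tested was called higher (0.00869%). At an unadjusted p under 0.05 with a fold change above 1.2, 4 members were higher, Calr, Hsp90b1, Dnajc3 and Dnajb11, against 5.49% of all genes. Calr alone had groups that did not overlap, against 3.55%. It read 837, 716, 764 and 962 RPKM in Ad-Cre and 1412, 1269.6, 1251 and 1377 in Ad-Cre + JNK inhibitor, and so was higher by 1.43-fold to 1.77-fold within each preparation. Its log2 fold change was 0.86 ± 0.176 on the scaled values (limma adjusted p = 0.225, and from 0.0164 to 1.000 over the alternatives), 0.70 on RPKM as deposited and 0.33 with quantile normalization.

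Some markers of other cell types also had higher values in this comparison, and others had lower values. Of the markers, 3 had an unadjusted p under 0.05, the delta cell genes Sst (log2 fold change 1.08) and Rbp4 (0.86) and the macrophage gene Lyz2 (1.46, without overlap), and limma called none at an adjusted p under 0.05. The medians were 0.86 for the 3 delta cell markers, 0.38 for the 5 alpha cell markers, 0.17 for the 6 macrophage markers and -0.06 for the 10 beta cell markers. For the tested markers of other types they were 0.62 (2 duct), 0.33 (1 PP), 0.27 (4 endothelial), 0.13 (2 acinar), -0.58 (6 stellate) and -0.24 (1 plasma cell). Within the macrophage list, mean RPKM was higher with the inhibitor for Lyz2, C1qa and Cd68 and lower for C1qb, Csf1r and Adgre1. The part of these cell types in the values of the members was not tested.

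With the preparation as a block, 3 members were called, Calr (limma adjusted p = 0.0164), Dnajc3 (0.0271) and Hsp90b1 (0.0355), against 4.66% of all genes called higher in that fit. Dnajc3 had a log2 fold change of 0.47 ± 0.180 and Hsp90b1 of 0.56 ± 0.206 (0.19 and 0.059 with quantile normalization), and both were higher in 4 of 4 preparations. On RPKM as deposited, the members did not all follow. In M2, Hspa5, Hyou1, Dnajb11 and Sdf2l1 had lower values with the inhibitor (ratios of 0.972, 0.764, 0.977 and 0.581), and higher values in the other 3 preparations. Without scaling, the median log2 fold change of all genes in this comparison was -0.14. That median is from the comparison of the groups, and the shift of all genes within M2 alone is not given here.

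Canx stayed near its Ad-Cre level, at 196, 261, 240.2 and 274 RPKM with the inhibitor against 195, 252, 248 and 275 without (log2 fold change 0.16, 95% confidence interval -0.21 to 0.53). The ratio of Calr to Canx therefore went from 3.43 ± 0.634 to 5.58 ± 1.10, higher in 4 of 4 preparations by 1.44-fold to 1.71-fold and without overlap (exact permutation p = 0.0286, adjusted 0.229 over the 8 ratios). In Ad-LacZ the same ratio was 1.61 ± 0.228 without and 1.90 ± 0.561 with the inhibitor, with overlapping groups (exact permutation p = 0.429). The lectins thus stood furthest apart in Ad-Cre + JNK inhibitor, where Calr reached the range of Hspa5 and was above it in 2 of 4 libraries.

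Whether the effect of the virus differed with the inhibitor was tested as an interaction over all 16 libraries. Of 12274 genes, 0% were called higher by limma, and of the 10 members 0 were called. The largest estimate was that of Calr, 0.61 on the log2 scale (95% confidence interval -0.15 to 1.38, unadjusted p = 0.107, adjusted p = 1.000), and that of Hspa5 was 0.42 (-0.16 to 1.01). The comparisons share libraries, since Ad-Cre enters both its comparison with Ad-LacZ and that with the inhibitor, and their values are given side by side only. The related gene lists had 0 calls in either comparison of the inhibitor.

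The depth behind these values, estimated from the RPKM worth of 1 read and annotated gene lengths, was 7.71 to 25.4 M (megareads) per library, with Ad-Cre + JNK inhibitor F2 the lowest. The methods give a range of raw counts per sample, and the estimate lay below that range for some libraries, F2 of Ad-Cre + JNK inhibitor among them. Markers of beta, alpha, delta and PP cells were present in all libraries. Of 10 beta cell markers 2 were lower in Ad-Cre than in Ad-LacZ, Ucn3 (-2.11) and G6pc2 (-1.96), none was higher, and their summed level ran from 52128 to 85014 RPKM in Ad-LacZ and from 33563 to 84543 in Ad-Cre. None of the 9 tested alpha, delta and PP cell markers was called in that comparison. Digestive enzymes of acinar cells other than Cela1 were at or near 0. Cela1 had means of 4.54 RPKM in Ad-LacZ and 5.65 in Ad-Cre and was not called. The acinar list summed to 16.0 to 24.6 RPKM in Ad-LacZ and 28.5 to 36.7 in Ad-Cre, where Bhlha15 was higher (0.67). The 6 macrophage markers summed to 66.1 to 74.7 RPKM in Ad-LacZ and to 64.9 to 194 in Ad-Cre, with C1qb higher. They summed to 130.1 to 304 and 167 to 287 in the groups with inhibitor. Sdc1, the 1 tested of 3 plasma cell markers, was higher, in a list that summed to 0.963 to 2.43 and 2.60 to 17.7 RPKM. Of the tested markers of duct (2), stellate (4) and endothelial cells (4) none was called between Ad-Cre and Ad-LacZ, and the stellate list summed to 23.6 to 108 RPKM in Ad-LacZ and 21.8 to 683 in Ad-Cre. With the inhibitor in both arms, 4 of the 10 beta cell markers were lower in Ad-Cre + JNK inhibitor, G6pc2 (-2.33), Ucn3 (-2.19), Mafa (-1.71) and Slc2a2 (-1.69). In that comparison the PP cell gene Ppy (0.92, limma adjusted p = 0.0263) and Bhlha15 (1.10, adjusted p = 0.0219) were higher, the duct gene Spp1 was lower (-1.29, adjusted p = 0.00695), and no alpha, delta, stellate, endothelial, macrophage or plasma cell marker was called. The part of these cell types in the results of both comparisons was not tested.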

How the data were processed

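Poly(A) RNA of 16 libraries (4 groups of 4) was sequenced as paired reads on an Illumina instrument. The authors deposited 1 table of RPKM values per gene. The submitters' processing notes name the build GRCm38, while the annotation, the gene lengths and the step from reads to RPKM are not given in the sources used here. The 3 columns of the table that no label names were not used. RPKM was scaled between libraries by trimmed means of M values over all genes (30% of ratios and 5% of levels trimmed), and a gene entered a fit where 4 or more of its libraries exceeded 1 RPKM, and was tested on log2(RPKM + 1) with limma 3.58.1 (R 4.3.3, trended variance) with Benjamini-Hochberg adjustment at 0.05 over all genes tested. Fold changes are on that scale, which understates the change of low genes, and the pseudocount is 1. Each comparison was fitted on its own 8 libraries and the interaction on all 16. Levels, ratios between members and folds within a preparation are from RPKM as deposited. Ratios and single values were compared by exact two-sided permutation tests (scipy 1.17.1). Loci and overlaps are from GENCODE mouse M21 (GRCm38). The fits were tested on simulated data.

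The members, lists and tests were chosen with earlier results of these data known. The genes named are the 10 members, the 10 most like Hspa5, and, in each list, those called with the largest changes and a few of known role, the last picked after their values were seen. Replicate numbers mark parallel cultures of the same islet preparation. The residuals of same-numbered libraries correlated at 0.486 to 0.721 in the comparison of Ad-Cre with Ad-LacZ, at 0.158 to 0.663 in that with inhibitor, and at 0.131 to 0.826 and 0.646 to 0.821 in the comparisons of the inhibitor, so the numbers pair the samples. The main fits did not use this pairing. Alternatives were a pseudocount of 0.1, a filter at 0.1 RPKM or none, RPKM without scaling, quantile normalization, the preparation as a block, no variance trend, all libraries in 1 fit, and leaving out each preparation or Ad-Cre + JNK inhibitor F2.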

Additional observations from a re-analysis of the deposited data

Results flagged for a closer look

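Of the 40 sets of 4 RPKM values and 32 sets of 4 ratios, 3 held a library far from its group by Dixon's test, a test that flags about 1 set in 20 by chance. Hyou1 in Ad-Cre + JNK inhibitor M2 was the lowest of its group at 320.2 RPKM, where the nearest library read 576. The ratio of Hsp90b1 to Hspa5 in Ad-LacZ + JNK inhibitor F1 was the highest of its group at 1.92, where the nearest was 1.40. The ratio of Calr to Canx in Ad-Cre + JNK inhibitor F1 was the highest of its group at 7.22, where the nearest was 5.21.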

How the results depend on the processing

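In both comparisons of the viruses, Hspa5, Hsp90b1, Hyou1, Dnajb11, Dnajc3, Sdf2l1 and Calr kept their calls under every alternative run, and the members called numbered 7 to 9. The calls of Dnajb9 and Canx were lost in 26 cases in all, given with those genes above. With the preparation as a block, 3 members were called for the inhibitor in Ad-Cre, and the block changed no other call of a member. Over all genes the block gave 1819 higher and 2170 lower in Ad-Cre against Ad-LacZ, where the fit without it gave 845 and 1110, and leaving out F2 gave 98 and 67. For the ratios, pairing by preparation cannot give an exact p below 0.125.

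Directions turned only among differences that were not called. With quantile normalization, the log2 fold change for the inhibitor in Ad-LacZ was -0.082 for Hsp90b1 and -0.040 for Canx. In Ad-Cre it was -0.22 for Hspa5, -0.21 for Hyou1, -0.011 for Dnajb9, -0.12 for Sdf2l1 and -0.12 for Canx, and the interaction for Canx was -0.066. With RPKM as deposited the interaction was -0.0064 for Sil1 and -0.038 for Canx, and without scaling the median of all genes lay at -0.14 for the inhibitor in Ad-Cre. With 1 preparation left out, the inhibitor in Ad-LacZ ranged from -0.088 to 0.32 for Hsp90b1, -0.057 to 0.18 for Dnajb11, -0.067 to 0.25 for Dnajc3 and -0.026 to 0.093 for Canx, each lowest without F1. The interaction ranged from -0.022 to 0.34 for Sil1 and from -0.22 to 0.018 for Sdf2l1. The log2 change of the ratio of Dnajc3 to Hspa5 ranged from -0.034 to 0.085 in Ad-Cre against Ad-LacZ and from -0.11 to 0.095 with the inhibitor, where that of Hsp90b1 to Hspa5 ranged from -0.0011 to 0.40. For the inhibitor in Ad-Cre, that of Dnajb9 to Hspa5 ranged from -0.25 to 0.065 and that of Sil1 to Hyou1 from -0.057 to 0.27. The cause was not tested.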
